A study of Mus musculus with 8 samples.

Results

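DNA repair and damage checkpoint genes were followed in mouse embryonic fibroblasts of 2 genotypes with and without doxorubicin. The set is a list of 47 genes of 8 roles, and its members were the array probes whose platform gene symbol is on the list and whose signal was above background on at least 2 arrays. Of the 47 genes, 43 had a probe on the array and 34 were measured above background on at least 2 arrays, by 46 of the 12362 probes tested. These 34 members are among 9340 genes tested, each represented by its brightest probe. Chek1, Nbn, Brca1, Bard1, Xrcc5, Ogg1, Ercc2, Msh3 and Fancg had a probe but did not pass this filter, and Atr, Mdc1, Xrcc2 and Fanca are not analysed here. Xrcc3 passed the filter only through the wild type doxorubicin arrays, so its difference between groups was in part fixed by the filter. Fancc and Fanci passed only through untreated arrays, so their falls after doxorubicin were in part fixed in the same way.

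Messenger RNA was measured on 8 one-colour bead arrays, 2 per group. The groups were staggerer fibroblasts given doxorubicin for 12 h, untreated staggerer fibroblasts, wild type fibroblasts given doxorubicin for 12 h and untreated wild type fibroblasts. All were embryonic fibroblasts of the C57BL/6J background, and staggerer mice carry a deletion in Rora, which encodes the nuclear receptor RORα. The design asks how the response to DNA damage differs between the genotypes. The doxorubicin dose is not given in the sources used here, nor is the number of embryos or cell isolates behind each genotype, so genotype and isolate cannot be told apart. Nothing says that both arrays of a group stem from separate cultures, and the p-values thus reflect array-to-array spread alone, which may be technical.

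Doxorubicin traps topoisomerase II on DNA and leaves strand breaks. Breaks are read by sensor complexes and by the kinases ATM and ATR, which act through the checkpoint kinases to halt the cell cycle and through p53 to induce target genes, some of which encode repair proteins. Breaks are joined by end joining or, after replication, by homologous recombination, while excision and mismatch repair remove damaged or mispaired bases. Many recombination genes are transcribed mainly in dividing cells, under E2F factors.

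Signal was lower on the staggerer doxorubicin arrays than on the other 6. They had 9576 and 9246 probes above background, against 10942 to 11572 on the others, and a median background-corrected log2 signal of 7.64 and 7.55, against 8.61 to 9.11. Of the 34 members, 24 were above background on each of them, against 30 to 33 on every other array. Between-array normalization evens out such a difference, and results without it are given below. The cause of the lower signal was not tested. Of 11 fibroblast markers on the array, 11 were above background on at least 1 array of every group. Single fibroblast markers differed between the groups in either direction. Pdgfra had mean log2 levels of 6.9 in staggerer cells after doxorubicin, 9.4 in untreated staggerer, 9.2 in wild type after doxorubicin and 11.3 in untreated wild type cells. Lum had 10.8, 10.1, 8.1 and 9.2 in the same order. Macrophage, epithelial, mesothelial and neural markers also moved with the groups. The log2 of the summed macrophage markers was 11.50 to 11.52 in staggerer cells after doxorubicin and 10.49 to 10.52 in untreated staggerer cells, against 12.44 to 12.57 in wild type cells after doxorubicin and 12.39 to 12.44 in untreated wild type cells, with 5, 4, 5 and 6 of 8 markers above background in the order given. Of 4 mesothelial markers, 2 were above background in staggerer cells after doxorubicin, 0 in untreated staggerer cells, 3 in wild type cells after doxorubicin and 3 in untreated wild type cells. Of 6 epithelial markers, 2, 0, 4 and 3 were above background in the same order of groups. The log2 of the summed neural markers was 11.22 to 11.44 in staggerer cells after doxorubicin and 10.23 to 10.40 in untreated staggerer cells, against 10.98 to 11.34 in wild type cells after doxorubicin and 9.91 to 10.07 in untreated wild type cells, with 2 or 3 of 6 above background in each. Their part in the results was not tested. In such bulk samples, fewer cells of a type and less RNA per cell cannot be told apart. Rora differed between untreated staggerer and wild type cells, with a log2 fold change of -1.33 (adjusted p = 0.00217), but where its probe lies relative to the deletion is not known here, so it does not check the labels.

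After 12 h of doxorubicin, staggerer fibroblasts had more repair genes lowered than raised. Of the 34 members, 5 rose and 16 fell, with limma adjusted p-values under 0.05 over all 9340 genes, and 13 did not pass. Those that rose were 14.7% of the members, against 31.9% of all genes tested, and those that fell were 47.1%, against 33.2% of all genes. The median log2 fold change was -0.27 over the members and 0.03 over all genes tested, and the members' median was -0.45 without staggerer doxorubicin array 2 and -0.05 under median centring. The genes that rose were Rrm2b, Ercc1, Ddb1, Fancd2 and Ddb2, of which the last 2 turned below 0 without between-array normalization. Falls that passed included Xpa and, above background on neither doxorubicin array and so known only as a least fold, Fignl1, Ercc4, Polh and Rad54l. Without untreated staggerer array 1 the number that rose was 3 in place of 5, because Ddb2 and Fancd2 no longer passed. Without between-array normalization, which put the median of all genes at -0.56, the number that rose was 0, with Rrm2b at 0.44 (adjusted p = 0.0685), Ercc1 at 0.36 (adjusted p = 0.101) and Ddb1 at 0.30 (adjusted p = 0.233), and 26 fell.

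In wild type fibroblasts the repair genes moved both ways. Of the 34 members, 11 rose and 11 fell, which is 32.4% each, and 12 did not pass. Of all genes tested, 26.4% rose and 30.5% fell, so both shares of the members lie near the background. The median log2 fold change was -0.27 over the members and -0.09 over all genes. With detection required on all 8 arrays, which leaves 22 members, 10 rose and 4 fell, and the median turned to 0.25. This filter leaves out members that fell below background after doxorubicin, such as Fancc, Fancd2 and Fanci, so the turn is in part fixed by it. The shares of all genes under this filter are not given here. Rises that passed included Xrcc1, Rrm2b, Ercc5, Msh6 and Ung, and falls included Fignl1, Parp2, Rad54l and Fancd2, the last known only as a least fold. Without between-array normalization 7 rose and 20 fell, with the median of all genes at -0.35, and the rises of Rad50 (0.29, adjusted p = 0.228), Wrn (0.36, adjusted p = 0.085), Xpc (0.41, adjusted p = 0.0756) and Ddb2 (0.26, adjusted p = 0.259) did not pass.

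The genotypes' responses share no arrays, so they can be set side by side. Rrm2b, Ercc1 and Ddb2 rose in both genotypes, except that none of them passed in staggerer cells without between-array normalization, where Ddb2 turned below 0, and Apex1, Chek2, Fancc, Fignl1, Parp2, Rad54l and Xpa fell in both. These 10 members are 29.4% of the set, against 26.1% of all genes that moved the same way in both. Opposite changes that passed in both genotypes were seen in 3 members, 8.82% against 12.5% of all genes: Ercc5 and Msh6 fell in staggerer and rose in wild type cells, and Fancd2 did the reverse, though not without between-array normalization. Rad50, Ung, Wrn, Xpc, Xrcc1 and Xrcc3 passed as raised in wild type cells and did not pass in staggerer cells. Without between-array normalization Ung (-0.81), Xpc (-0.81) and Xrcc1 (-0.85) passed as lowered in staggerer cells, below the median of all genes of -0.56. The falls of Blm, Ercc3 (which turned above 0 under median centring), Ercc4, Polh, Polk, Rad52 and Xrcc6 passed in staggerer cells and not in wild type cells. Atm, Brca2, Lig3 and Lig4 passed in neither.

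The difference between the 2 responses was tested itself, as the interaction of genotype and doxorubicin. It passed for 19 members. In 5 of them (14.7% of the members, against 26.6% of all genes) the staggerer response lay above the wild type one, and in 14 (41.2%, against 32.5% of all genes) it lay below. The median of the difference was -0.22 over the members and -0.11 over all genes. The count of 5 was 3 without untreated staggerer array 2, without either wild type doxorubicin array or without untreated wild type array 2, and 4 or 5 without any other array.

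**Figure D1:**
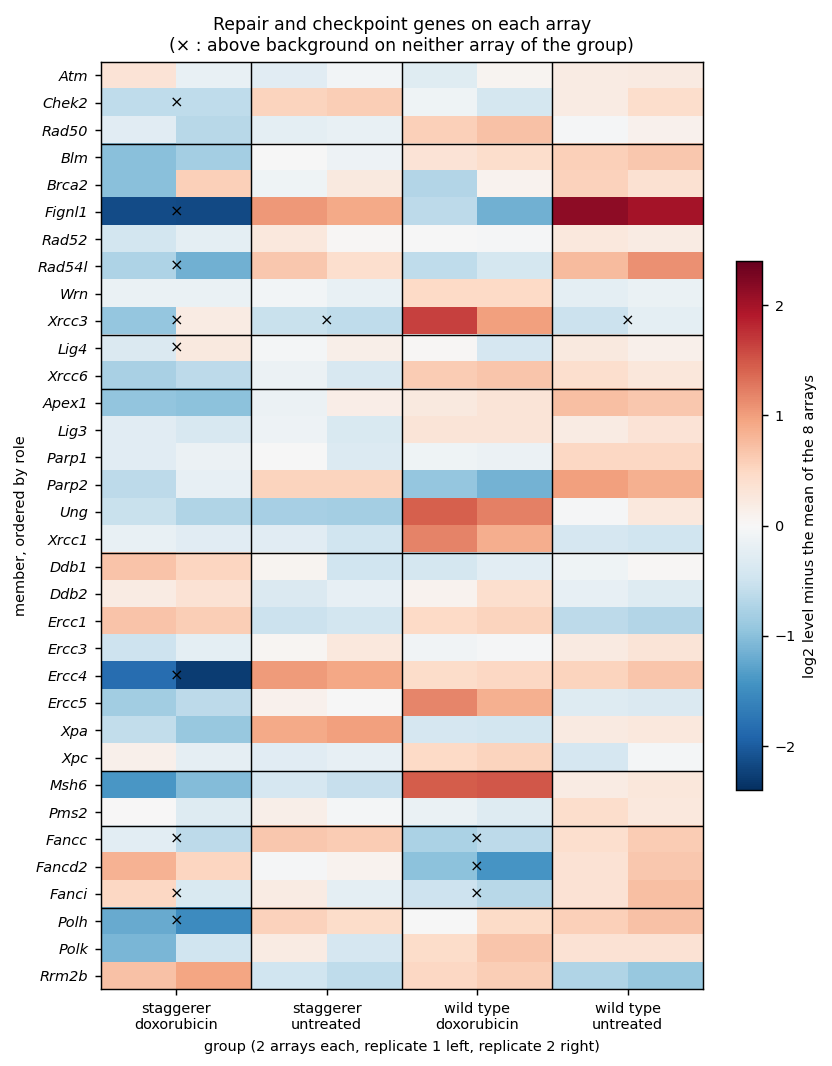
Log2 level of the 34 measured members on each of the 8 arrays, shown as the difference from the member's mean over all arrays, with members in rows ordered by role and groups in columns from staggerer after doxorubicin to untreated wild type. A cross marks a group in which neither array was above background, which is the case for 9 members in staggerer cells after doxorubicin and for 3 in wild type cells after doxorubicin.

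The checkpoint kinases and break sensors did not move as a group. Atm, the kinase that responds to DNA breaks, had log2 levels of 7.77 and 7.26 on the staggerer doxorubicin arrays, against 7.18 and 7.38 on the untreated staggerer arrays. On the wild type doxorubicin arrays it had 7.15 and 7.51, against 7.64 and 7.67 on the untreated wild type arrays. The staggerer groups overlapped and the wild type ones did not, but neither difference passed, with log2 fold changes of 0.24 ± 0.20 in staggerer (SE, n = 2 arrays per group, as for all fold changes here; adjusted p = 0.326) and -0.32 ± 0.20 in wild type cells (adjusted p = 0.214).

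Chek2, a kinase that ATM activates, was lower after doxorubicin in both genotypes. It was at 6.12 and 6.14, not above background, on the staggerer doxorubicin arrays, against 7.28 and 7.33 on the untreated staggerer arrays, and it was at 6.63 and 6.31 on the wild type doxorubicin arrays, against 6.94 and 7.16 on the untreated wild type arrays. The groups did not overlap in either genotype. Where a gene was above background on neither array of a group, only a least fold can be stated. The brighter group's mean is then set against the lowest signal above background on each dim array, or against the gene's own signal where that is higher. On that basis Chek2 was at least 1.45-fold lower in staggerer cells after doxorubicin than without it (adjusted p = 0.000324). Here and below, an adjusted p beside a least fold is that of the fitted difference and does not test the least fold. In wild type cells the log2 fold change of Chek2 was -0.58 ± 0.15 (adjusted p = 0.0117). A dimmer second Chek2 probe, above background on 3 arrays, gave 0.31 in staggerer cells (adjusted p over all probes = 0.313) and 0.17 in wild type cells. The wild type fall did not pass without wild type doxorubicin array 2 or untreated array 2 (adjusted p = 0.0784 and 0.0797), and the staggerer fall did not pass with the mean of the probes (-0.44, adjusted p = 0.0502), nor did the wild type one (-0.21, adjusted p = 0.327).

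Rad50 encodes the long coiled-coil subunit of the MRE11 break sensor. It had 9.71 and 9.32 on the staggerer doxorubicin arrays, against 9.75 and 9.80 in untreated staggerer cells, and 10.56 and 10.68 on the wild type doxorubicin arrays, against 9.96 and 10.08 in untreated wild type cells. It rose in wild type cells by 0.60 ± 0.15 (adjusted p = 0.0121), while in staggerer cells the change was -0.26 (adjusted p = 0.17). The responses differed by -0.86 ± 0.22 (adjusted p = 0.011), and after doxorubicin Rad50 was lower in staggerer than in wild type cells, with a log2 fold change of -1.10 ± 0.15 (adjusted p = 0.00039). The wild type rise did not pass without doxorubicin array 2 or untreated array 1 (adjusted p = 0.0695 and 0.0723).

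Among the homologous recombination genes and helicases, 4 of 7 measured members fell in staggerer cells and 0 rose, while in wild type cells 2 rose and 2 fell. Of all genes 33.2% fell and 31.9% rose in staggerer cells, and 30.5% fell and 26.4% rose in wild type cells, so the wild type shares of 28.6% each lie near the background, and 1 of the rises is that of Xrcc3. Fignl1, an ATPase that acts in homologous recombination, was among the members that fell in both genotypes. It had 5.18 and 5.15, not above background, on the staggerer doxorubicin arrays, against 8.35 and 8.23 on the untreated staggerer arrays. In wild type cells it had 6.68 and 6.17 after doxorubicin, against 9.46 and 9.31 without it. Both untreated groups lay far above both treated ones. The fall was at least 2.86-fold in staggerer cells (adjusted p = 1.45e-05), and a log2 fold change of -2.96 ± 0.18 in wild type cells (adjusted p = 1.5e-05). The fitted responses differed by -0.16 (adjusted p = 0.59), and by 0.39 without background correction (adjusted p = 0.0333).

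Rad54l, a motor protein that acts during strand exchange, followed the same course. It had 6.47 and 6.05, not above background, on the staggerer doxorubicin arrays, against 7.85 and 7.61 in untreated staggerer cells, and 6.60 and 6.77 on the wild type doxorubicin arrays, against 7.95 and 8.30 in untreated wild type cells. The treated and untreated groups did not overlap in either genotype. The fall was at least 1.94-fold in staggerer cells (adjusted p = 0.000418) and -1.44 ± 0.19 on the log2 scale in wild type cells (adjusted p = 0.000552), and the fitted difference between the responses was -0.03 (adjusted p = 0.933).

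The RecQ helicases Blm and Wrn, which unwind recombination and replication intermediates, were both lower in staggerer than in wild type cells after doxorubicin. Blm had 7.64 and 7.83 on the staggerer doxorubicin arrays, against 8.64 and 8.52 on the untreated ones, a log2 fold change of -0.85 ± 0.12 (adjusted p = 0.000711). In wild type cells it had 8.98 and 9.07 after doxorubicin, against 9.21 and 9.29 without it, a change of -0.23 that did not pass, while its second probe passed with -0.52 (adjusted p over all probes = 0.0122). Between the genotypes after doxorubicin Blm differed by -1.29 ± 0.12 (adjusted p = 6.13e-05). Wrn had 8.79 and 8.80 in staggerer cells after doxorubicin, against 8.88 and 8.78 without it, and 9.44 and 9.43 in wild type cells after doxorubicin, against 8.72 and 8.80 without it. Its levels overlapped in staggerer cells, and the rise in wild type cells was 0.67 ± 0.11 (adjusted p = 0.0016), with a difference between the responses of -0.71 ± 0.16 (adjusted p = 0.00652).

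Xrcc3, a homologous recombination gene, was above background only on the wild type doxorubicin arrays, where it had 7.44 and 6.78. On the other arrays it read 4.87 to 6.01. It was at least 2.06-fold higher in wild type cells after doxorubicin than without it (adjusted p = 0.00571) and at least 1.26-fold lower in staggerer than in wild type cells after doxorubicin (adjusted p = 0.00394). Of the other members of this role, Rad52, which anneals single strands, fell in staggerer cells by 0.48 on the log2 scale (adjusted p = 0.0141) and had -0.24 in wild type cells. Brca2, which is needed for homologous recombination, was above background on 1 of 2 arrays in each doxorubicin group and had log2 fold changes of -0.29 ± 0.48 in staggerer and -0.77 ± 0.48 in wild type cells, neither of which passed. The call of Rad52 was lost without staggerer doxorubicin array 1 (adjusted p = 0.0568) or untreated staggerer array 1 (adjusted p = 0.0938).

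In end joining, the Ku subunit Xrcc6 and the ligase Lig4 were measured. Xrcc6 had 10.46 and 10.60 on the staggerer doxorubicin arrays, against 11.11 and 10.85 in untreated staggerer cells, and 11.85 and 11.90 on the wild type doxorubicin arrays, against 11.64 and 11.51 in untreated wild type cells. It fell in staggerer cells by 0.45 ± 0.14 on the log2 scale (adjusted p = 0.0207), had 0.30 in wild type cells (adjusted p = 0.0956), and was lower in staggerer than in wild type cells after doxorubicin, with a log2 fold change of -1.34 ± 0.14 (adjusted p = 7.56e-05). The other Xrcc6 probes gave 0.28 and -0.10 for the staggerer response, one of them passed with -0.70 in wild type cells (adjusted p over all probes = 0.0149), and they gave 0.15 and 0.60 for the difference between the responses, against -0.75 ± 0.19 with the brightest probe (adjusted p = 0.0119). Without staggerer doxorubicin array 1 or untreated staggerer array 1 the staggerer fall did not pass (adjusted p = 0.0724 and 0.131), nor did it under median centring (-0.11, adjusted p = 0.491). Lig4, which seals the joined ends, was not above background in staggerer cells after doxorubicin and passed in no comparison.

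Of the 6 measured base excision and single-strand break repair genes, 0 rose and 2 fell in staggerer cells, and 2 rose and 3 fell in wild type cells. The 33.3% that fell in staggerer cells equals the background, where 33.2% of all genes fell and 31.9% rose, and in wild type cells 26.4% of all genes rose and 30.5% fell. After doxorubicin 1 (16.7%) was higher and 4 (66.7%) were lower in staggerer than in wild type cells, against 32.6% higher and 39.9% lower of all genes. Xrcc1, the scaffold of single-strand break repair, had 8.97 and 8.87 on the staggerer doxorubicin arrays, against 8.87 and 8.66 in untreated staggerer cells, and 10.34 and 10.02 on the wild type doxorubicin arrays, against 8.74 and 8.66 in untreated wild type cells. The wild type doxorubicin arrays lay above all others. It rose in wild type cells by 1.47 ± 0.15 (adjusted p = 0.000144) and not in staggerer cells (0.15), with a difference between the responses of -1.32 ± 0.21 (adjusted p = 0.00145).

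Ung, the glycosylase that removes uracil from DNA, showed a like pattern. It had 7.84 and 7.66 in staggerer cells after doxorubicin, against 7.58 and 7.55 without it, and 9.81 and 9.59 in wild type cells after doxorubicin, against 8.34 and 8.62 without it. All 4 staggerer arrays lay below all 4 wild type arrays. The rise in wild type cells was 1.22 ± 0.15 (adjusted p = 0.000348), the change of 0.18 in staggerer cells did not pass, and the responses differed by -1.04 ± 0.21 (adjusted p = 0.00428).

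Parp2 and Parp1, enzymes that add poly(ADP-ribose) at breaks, went down most in wild type cells. Parp2 had 9.34 and 9.76 on the staggerer doxorubicin arrays, against 10.49 and 10.49 in untreated staggerer cells, and 9.03 and 8.82 on the wild type doxorubicin arrays, against 10.94 and 10.82 in untreated wild type cells. Treated arrays lay below untreated ones in both genotypes. The log2 fold change was -0.94 ± 0.16 in staggerer cells (adjusted p = 0.00166) and -1.95 ± 0.16 in wild type cells (adjusted p = 6.2e-05), and the responses differed by 1.01 ± 0.23 (adjusted p = 0.00737), or by 0.33 without between-array normalization (adjusted p = 0.339). After doxorubicin Parp2 was higher in staggerer than in wild type cells by 0.62 ± 0.16 (adjusted p = 0.00977), a call that was lost without wild type doxorubicin array 2 (adjusted p = 0.0655) and a value that fell to 0.42 without staggerer doxorubicin array 2. Without between-array normalization it turned to -0.37 (adjusted p = 0.115), against a median of -0.80 over all genes. The second Parp2 probe had -0.56 in staggerer cells, which did not pass (adjusted p over all probes = 0.0554).

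Parp1 fell by 0.62 ± 0.14 on the log2 scale in wild type cells (adjusted p = 0.00682) and had -0.03 in staggerer cells. Apex1, the endonuclease that cuts at abasic sites, had 10.11 and 10.07 on the staggerer doxorubicin arrays, against 10.91 and 11.22 in untreated staggerer cells, and 11.29 and 11.38 on the wild type doxorubicin arrays, against 11.78 and 11.71 in untreated wild type cells. It fell in staggerer cells by 0.98 ± 0.14 (adjusted p = 0.000555) and in wild type cells by 0.41 ± 0.14 (adjusted p = 0.0337). The wild type call was lost without any one of the 4 wild type arrays (adjusted p from 0.0826 to 0.141) and without a detection filter (adjusted p = 0.0769), and it was not made by the second Apex1 probe (-0.35, adjusted p over all probes = 0.222). Lig3, the ligase that acts with XRCC1, passed in neither genotype, with -0.09 in staggerer and 0.05 in wild type cells.

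**Figure D2:**
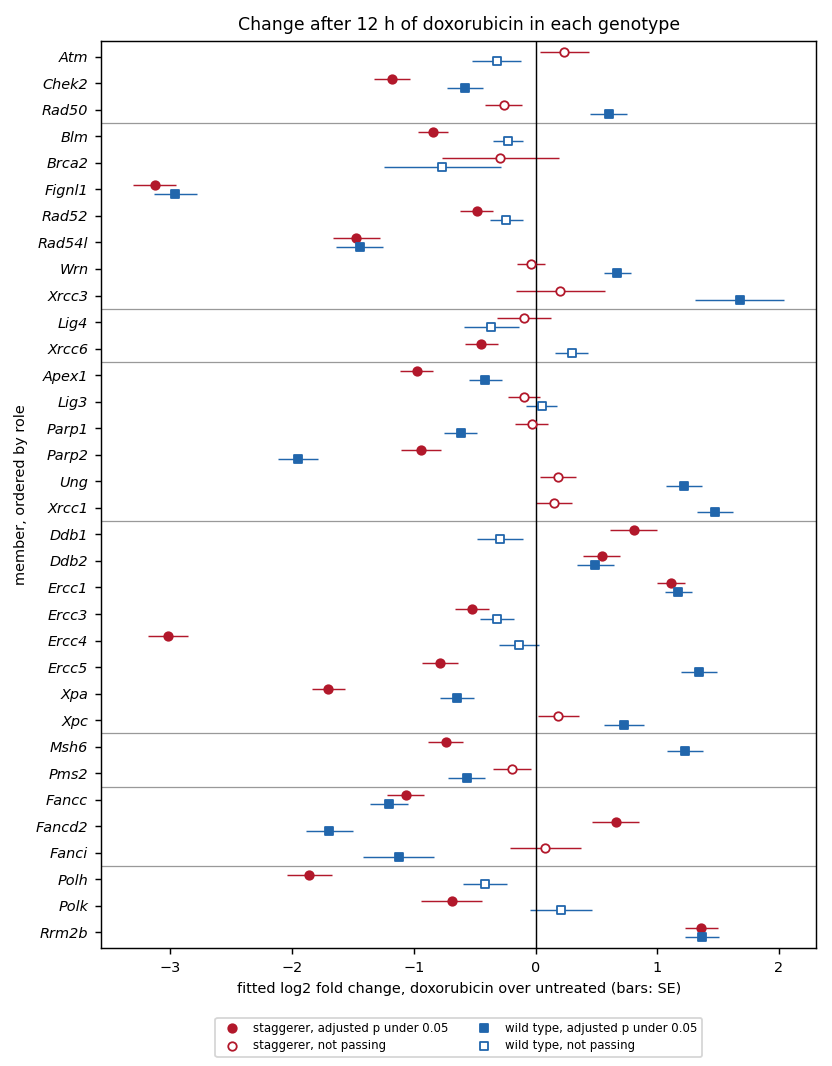
Fitted log2 fold change of each member after 12 h of doxorubicin over untreated cells, in staggerer and in wild type fibroblasts, with bars for the SE (n = 2 arrays per group), members in rows ordered by role, and filled points for an adjusted p under 0.05. Ercc5 and Msh6 lie left of 0 in staggerer cells and right of 0 in wild type cells, and Rrm2b and Ercc1 lie at about the same place in both.

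The nucleotide excision repair genes went both ways. Of 8 measured members, 3 rose and 4 fell in staggerer cells, and 4 rose and 1 fell in wild type cells. These are 37.5% and 50% in staggerer cells, against 31.9% and 33.2% of all genes, and 50% and 12.5% in wild type cells, against 26.4% and 30.5% of all genes. Ercc1 and Ercc4 encode the subunits of one nuclease, ERCC1-XPF, and went apart in staggerer cells. Ercc1 had 10.70 and 10.60 on the staggerer doxorubicin arrays, against 9.50 and 9.57 in untreated staggerer cells, and 10.49 and 10.54 on the wild type doxorubicin arrays, against 9.38 and 9.31 in untreated wild type cells. It rose by 1.11 ± 0.11 in staggerer (adjusted p = 0.000125) and by 1.17 ± 0.11 in wild type cells (adjusted p = 0.000116), with a difference between the responses of -0.06 ± 0.16 (adjusted p = 0.759).

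Ercc4 had 5.67 and 5.21, not above background, on the staggerer doxorubicin arrays, against 8.50 and 8.42 in untreated staggerer cells. Wild type levels were 7.93 and 7.99 after doxorubicin, against 8.03 and 8.15 without it. Only the staggerer doxorubicin arrays were low. Ercc4 was at least 3.21-fold lower in staggerer cells after doxorubicin than without it (adjusted p = 1.28e-05), and at least 2.27-fold lower than in wild type cells after doxorubicin (adjusted p = 1.39e-05). In wild type cells its log2 fold change of -0.13 did not pass (adjusted p = 0.514), and the fitted difference between the responses was -2.89 ± 0.23 (adjusted p = 0.000171).

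Ercc5, the XPG nuclease that makes the other incision, had 10.21 and 10.41 on the staggerer doxorubicin arrays, against 11.15 and 11.04 in untreated staggerer cells, and 12.21 and 11.89 on the wild type doxorubicin arrays, against 10.72 and 10.69 in untreated wild type cells. The order of treated and untreated arrays was reversed between the genotypes. It fell in staggerer cells by 0.79 ± 0.15 (adjusted p = 0.00237) and rose in wild type cells by 1.34 ± 0.15 (adjusted p = 0.000218), and the responses differed by -2.13 ± 0.21 (adjusted p = 0.000244). The second Ercc5 probe gave -0.98 in staggerer and 1.20 in wild type cells. These directions held under all 3 other scalings tried and without any one array.

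Xpa, the scaffold protein of the incision complex, had 9.17 and 8.85 on the staggerer doxorubicin arrays, against 10.67 and 10.75 in untreated staggerer cells, and 9.36 and 9.33 on the wild type doxorubicin arrays, against 9.97 and 10.01 in untreated wild type cells. All treated arrays lay below all untreated ones. The log2 fold change was -1.70 ± 0.14 in staggerer (adjusted p = 4.62e-05) and -0.64 ± 0.14 in wild type cells (adjusted p = 0.00498), and the responses differed by -1.06 ± 0.19 (adjusted p = 0.00262).

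The damage-binding genes Xpc, Ddb1 and Ddb2 recognise lesions before excision. Xpc had 8.34 and 8.0 on the staggerer doxorubicin arrays, against 7.94 and 8.02 in untreated staggerer cells, and 8.69 and 8.75 on the wild type doxorubicin arrays, against 7.82 and 8.16 in untreated wild type cells. It rose in wild type cells by 0.73 ± 0.17 (adjusted p = 0.0072), had 0.19 ± 0.17 in staggerer cells (adjusted p = 0.35), and the difference of -0.54 ± 0.23 between the responses did not pass (adjusted p = 0.0815). Without untreated wild type array 1 the wild type rise did not pass (adjusted p = 0.0538).

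Ddb2 had 7.27 and 7.43 on the staggerer doxorubicin arrays, against 6.73 and 6.89 in untreated staggerer cells, and 7.15 and 7.47 on the wild type doxorubicin arrays, against 6.88 and 6.76 in untreated wild type cells. Treated arrays lay above untreated ones in both genotypes, by 0.54 ± 0.15 in staggerer (adjusted p = 0.014) and 0.49 ± 0.15 in wild type cells (adjusted p = 0.0249). Both calls were lost in some runs without 1 array, the staggerer one without doxorubicin array 2 or untreated array 1 (adjusted p = 0.0505 and 0.0826), and the wild type one without doxorubicin array 2 (log2 fold change 0.33, adjusted p = 0.152) or either untreated array (adjusted p = 0.0632 and 0.121). Without between-array normalization the staggerer value turned to -0.33 (adjusted p = 0.16), and without background correction the wild type call was lost (0.23, adjusted p = 0.0592).

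Ddb1, the adaptor that joins DDB2 to a ubiquitin ligase, had 11.46 and 11.30 on the staggerer doxorubicin arrays, against 10.85 and 10.30 in untreated staggerer cells, and 10.36 and 10.54 on the wild type doxorubicin arrays, against 10.68 and 10.81 in untreated wild type cells. It rose in staggerer cells by 0.81 ± 0.19 (adjusted p = 0.0073), a value that fell to 0.53 without untreated staggerer array 2. The change of -0.29 in wild type cells did not pass, and the responses differed by 1.10 ± 0.27 (adjusted p = 0.0101). Ercc3, the XPB helicase of TFIIH, gave -0.52 ± 0.14 in staggerer cells with its brightest probe (adjusted p = 0.0126) and 0.45 with its second (adjusted p over all probes = 0.0111), so its direction is uncertain. The second probe also passed between the genotypes after doxorubicin (0.71, adjusted p over all probes = 0.00104) and in the interaction (0.54, adjusted p over all probes = 0.0267). Under median centring the brightest probe gave 0.17 (adjusted p = 0.317), against a median of 0.46 over all genes, and its call was lost without staggerer doxorubicin array 1 or untreated staggerer array 2 (adjusted p = 0.0529 and 0.0834).

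In mismatch repair, Msh6, which acts in mismatch recognition, went opposite ways in the genotypes. It had 9.88 and 10.23 on the staggerer doxorubicin arrays, against 10.86 and 10.72 in untreated staggerer cells, and 12.72 and 12.76 on the wild type doxorubicin arrays, against 11.47 and 11.54 in untreated wild type cells. Wild type cells after doxorubicin had the highest levels and staggerer cells after doxorubicin the lowest. It fell in staggerer cells by 0.74 ± 0.15 (adjusted p = 0.00294) and rose in wild type cells by 1.23 ± 0.15 (adjusted p = 0.000301), and the responses differed by -1.97 ± 0.21 (adjusted p = 0.000293). After doxorubicin Msh6 was lower in staggerer than in wild type cells by -2.68 ± 0.15 (adjusted p = 9.52e-06), the largest difference between the genotypes among members measured in both groups. The second Msh6 probe gave -1.01 in staggerer cells, 1.46 in wild type cells and -2.79 between the genotypes after doxorubicin. Pms2, which acts after mismatch recognition, fell in wild type cells by 0.57 ± 0.15 (adjusted p = 0.0154) and had -0.19 in staggerer cells. That fall did not pass without wild type doxorubicin array 2 or untreated wild type array 1 (adjusted p = 0.0861 and 0.0917).

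The 3 measured Fanconi anaemia genes, of a pathway that repairs crosslinks between DNA strands, all fell in wild type cells. Of all genes tested, 30.5% fell there. Fancc and Fanci passed the detection filter only through untreated arrays, so their falls were in part fixed by the filter. Fancd2, whose product is modified at damaged forks, had 7.63 and 7.30 on the staggerer doxorubicin arrays, against 6.75 and 6.86 in untreated staggerer cells. On the wild type arrays it had 5.80 and 5.37 after doxorubicin, not above background, against 7.13 and 7.43 without it. The treated arrays were the higher ones in staggerer cells and the lower ones in wild type cells. It rose in staggerer cells by 0.66 ± 0.19 (adjusted p = 0.0185) and was at least 2.5-fold lower in wild type cells after doxorubicin than without it (adjusted p = 0.000255), with a fitted difference between the responses of 2.35 ± 0.27 (adjusted p = 0.000407). After doxorubicin it was at least 2.84-fold higher in staggerer than in wild type cells (adjusted p = 8.41e-05). The staggerer rise is the less certain value. It was lost without staggerer doxorubicin array 1 (adjusted p = 0.0767) or without either untreated staggerer array (adjusted p = 0.0883 and 0.054), and it turned to -0.23 without between-array normalization (adjusted p = 0.362).

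Fancc, of the core complex, was above background on no doxorubicin array, with 5.76 and 5.40 in staggerer and 5.27 and 5.39 in wild type cells, against 6.66 and 6.63 in untreated staggerer and 6.43 and 6.63 in untreated wild type cells. All treated arrays lay below all untreated ones. It was at least 1.49-fold lower in wild type cells after doxorubicin than without it (adjusted p = 0.000458). In staggerer cells the test passed (adjusted p = 0.000673) but the bound gives no fold, and under median centring it did not pass (adjusted p = 0.112). The second Fancc probe, above background on 2 arrays, gave -0.48 in wild type cells (adjusted p over all probes = 0.195). Fanci, the partner of FANCD2, had 6.44 and 5.58 on the staggerer doxorubicin arrays, against 6.14 and 5.71 in untreated staggerer cells, and 5.46 and 5.28 on the wild type doxorubicin arrays, against 6.30 and 6.68 in untreated wild type cells. It was not above background on any doxorubicin array. It was at least 1.45-fold lower in wild type cells after doxorubicin than without it (adjusted p = 0.0128), a call lost without wild type doxorubicin array 2 or untreated wild type array 2 (adjusted p = 0.07 and 0.0822). Its staggerer response could not be measured, since its mean in untreated staggerer cells, 5.93, lies below the lowest signals above background on the staggerer doxorubicin arrays, 6.70 and 6.86.

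Of the translesion polymerases and the nucleotide supply gene, Rrm2b rose alike in both genotypes. Rrm2b, the ribonucleotide reductase subunit that p53 induces, had 9.82 and 10.07 on the staggerer doxorubicin arrays, against 8.64 and 8.53 in untreated staggerer cells, and 9.63 and 9.72 on the wild type doxorubicin arrays, against 8.40 and 8.21 in untreated wild type cells. All treated arrays lay above all untreated ones. The rise was 1.36 ± 0.14 in staggerer (adjusted p = 0.000127) and 1.37 ± 0.14 in wild type cells (adjusted p = 0.000148). The responses differed by -0.00 ± 0.20 (adjusted p = 0.988).

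Polh and Polk, polymerases that copy past damaged bases, fell in staggerer cells. Polh had 6.60 and 6.29, not above background, on the staggerer doxorubicin arrays, against 8.36 and 8.25 in untreated staggerer cells, and 7.80 and 8.26 on the wild type doxorubicin arrays, against 8.38 and 8.51 in untreated wild type cells. It was at least 2.88-fold lower in staggerer cells after doxorubicin than without it (adjusted p = 0.00011) and had -0.41 ± 0.18 in wild type cells (adjusted p = 0.0893), with a fitted difference between the responses of -1.44 ± 0.26 (adjusted p = 0.00246). Polk had 8.19 and 8.80 on the staggerer doxorubicin arrays, against 9.49 and 8.88 in untreated staggerer cells, and 9.73 and 9.94 on the wild type doxorubicin arrays, against 9.64 and 9.63 in untreated wild type cells. Its fall of 0.69 ± 0.25 on the log2 scale in staggerer cells (adjusted p = 0.0439) rested on single arrays, as it was -0.38 without staggerer doxorubicin array 1 (adjusted p = 0.201) and -0.39 without untreated staggerer array 1 (adjusted p = 0.258). The wild type value was 0.21 ± 0.25 (adjusted p = 0.512).

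**Figure D3:**
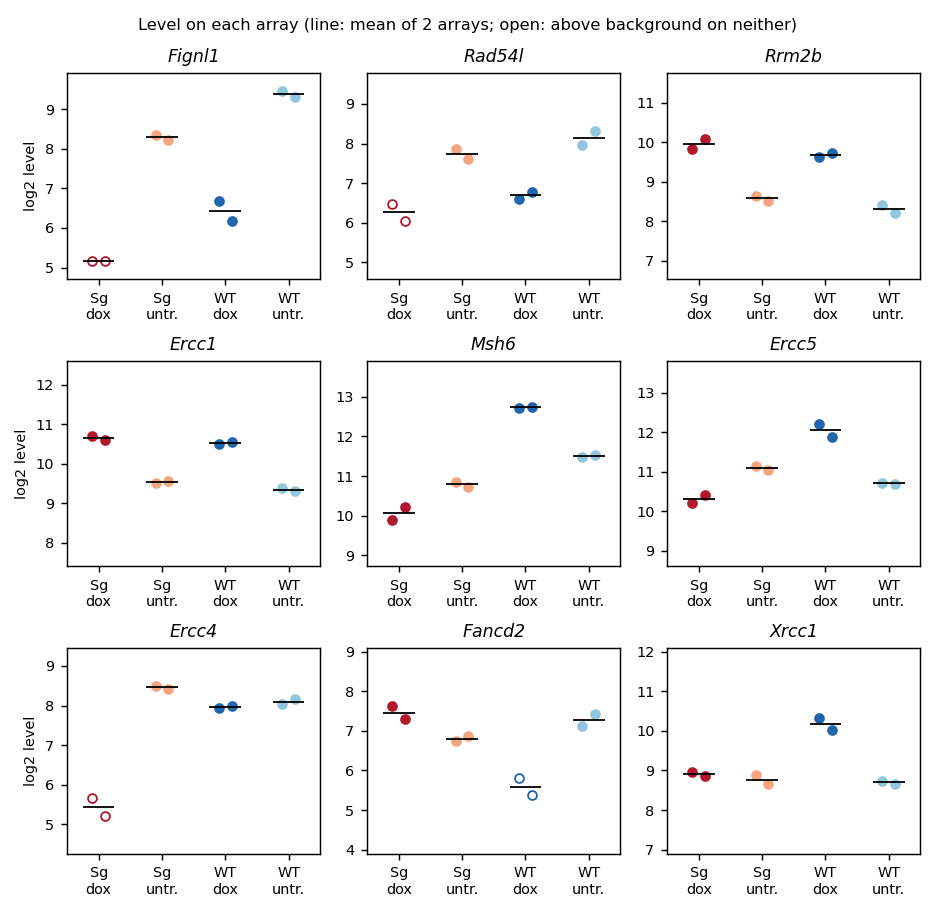
Log2 level of 9 members on each array, in staggerer cells after doxorubicin, untreated staggerer cells, wild type cells after doxorubicin and untreated wild type cells, with a line at the mean of 2 arrays and open points where neither array of the group was above background. Fignl1 and Rad54l are low and Rrm2b and Ercc1 high in both doxorubicin groups, while Msh6, Ercc5 and Xrcc1 are highest in wild type cells after doxorubicin.

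Of the members that textbooks list as induced by p53, namely Ddb2, Xpc, Polk, Polh and Rrm2b, 2 rose, 2 fell and 1 did not pass in staggerer cells, and 3 rose, 0 fell and 2 did not pass in wild type cells. Of the members listed as S phase genes under E2F, 8 of 13 were measured, of which 1 rose and 4 fell in staggerer cells, and 2 rose and 4 fell in wild type cells. Beside them, 14 of 20 cell division genes were measured, among them Cdk1, Plk1 and the replication genes Mcm2 to Mcm7, of which 7 rose and 4 fell in staggerer cells and 3 rose and 8 fell in wild type cells. Of all genes tested 31.9% rose and 33.2% fell in staggerer cells, and 26.4% rose and 30.5% fell in wild type cells. The part of cell division in the results was not tested.

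Promoter sequences are shown for 4 members because their responses differ: Msh6 and Ercc4, whose responses depended on genotype, and Chek2 and Fignl1, which fell in both genotypes. They come from RefSeq (GRCm38.p6) and span 250 bases before to 50 bases after the transcription start, read 5′ to 3′ on the gene's strand. Capitals mark an E2F site, searched on both strands as TTTCCCGC, TTTGGCGC, TTTCGCGC or TTTGCCGC. Msh6 lies at chr17:87974800-87975099 on the plus strand, Chek2 at chr5:110839733-110840032 on the plus strand, Fignl1 at chr11:11808913-11809212 on the minus strand and Ercc4 at chr16:13109486-13109785 on the plus strand.
Msh6: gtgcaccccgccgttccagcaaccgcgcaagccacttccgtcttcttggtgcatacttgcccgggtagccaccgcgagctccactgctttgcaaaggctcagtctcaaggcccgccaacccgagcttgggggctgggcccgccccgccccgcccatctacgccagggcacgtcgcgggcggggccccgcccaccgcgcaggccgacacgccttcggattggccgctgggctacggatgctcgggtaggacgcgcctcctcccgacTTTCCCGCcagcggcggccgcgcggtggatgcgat
Chek2: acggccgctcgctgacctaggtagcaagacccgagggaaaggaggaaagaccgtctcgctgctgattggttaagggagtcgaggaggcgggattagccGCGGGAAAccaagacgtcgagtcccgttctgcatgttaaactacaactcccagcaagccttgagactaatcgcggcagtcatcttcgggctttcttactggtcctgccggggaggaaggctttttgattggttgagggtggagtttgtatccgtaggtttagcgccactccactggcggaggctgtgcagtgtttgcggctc
Fignl1: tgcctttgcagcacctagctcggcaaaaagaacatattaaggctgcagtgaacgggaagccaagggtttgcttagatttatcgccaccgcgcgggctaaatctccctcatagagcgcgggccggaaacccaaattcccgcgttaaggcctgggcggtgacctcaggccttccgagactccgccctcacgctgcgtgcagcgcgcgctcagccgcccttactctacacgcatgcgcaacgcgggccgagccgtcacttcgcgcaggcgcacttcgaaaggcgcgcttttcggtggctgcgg
Ercc4: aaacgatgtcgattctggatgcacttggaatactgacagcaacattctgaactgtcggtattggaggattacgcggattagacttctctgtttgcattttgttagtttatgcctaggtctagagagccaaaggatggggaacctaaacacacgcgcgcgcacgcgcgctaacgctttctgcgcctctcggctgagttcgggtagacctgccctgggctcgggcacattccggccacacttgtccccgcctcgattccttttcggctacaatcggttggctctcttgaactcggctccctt
The site in Msh6 starts 15 bases downstream of the start base, and the one in Chek2, GCGGGAAA, is on the other strand and starts 152 bases before it. None of these letters occurs in the windows of Fignl1 and Ercc4.

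Of the 34 measured members, 27 had a promoter in the RefSeq table, 30 promoters in all. An E2F site was found in 4 of these 30 (13.3%), those of Chek2, Brca2, Xrcc6 and Msh6, against 744 of all 32851 promoters (2.26%). The CHR element TTTGAA was found in 1 of 30 (3.33%), that of Ercc5, against 17.9% of all promoters. A single p53 decamer was found in 1 of 30, that of Polk, against 8.36% of all promoters, and a full p53 site of paired decamers in 0 of 30, against 0.0731%. A match is a description of letters and not a binding site, and no match says only that these letters are not in the window. By the brightest probe, of the 4 genes with an E2F site Chek2 fell in both genotypes and Brca2 passed in neither. Msh6 fell in staggerer and rose in wild type cells, and Xrcc6 passed in staggerer cells alone. The second Chek2 probe gave 0.31 in staggerer and 0.17 in wild type cells. Of the other Xrcc6 probes, none passed in staggerer cells, and the dimmest passed in wild type cells (-0.70, adjusted p over all probes = 0.0149).

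After doxorubicin, most members that differed between the genotypes were lower in staggerer cells. Of the 34 members, 3 (8.82%) were higher and 16 (47.1%) lower in staggerer than in wild type cells, and 15 did not pass, against 32.6% higher and 39.9% lower of all genes tested. The median difference was -0.39 over the members and -0.14 over all genes. The members' median was -0.33 with 8 members at their bound, or at no change where the bound gives no fold. For that value the 2 members not above background in either group were left out. The higher ones were Fancd2, Ddb1 (0.93 ± 0.19, adjusted p = 0.00303) and Parp2, of which Parp2 turned below 0 and Ddb1 did not pass (0.34, adjusted p = 0.168) without between-array normalization. The lower ones included Msh6, Ung (-1.95 ± 0.15, adjusted p = 2.26e-05), Ercc5 (-1.74 ± 0.15, adjusted p = 3.54e-05), Xrcc6, Blm, Polh at least 2.39-fold lower (adjusted p = 0.000148), Polk (-1.34 ± 0.25, adjusted p = 0.00191), Xrcc1 (-1.26 ± 0.15, adjusted p = 0.000169), Apex1 (-1.25 ± 0.14, adjusted p = 0.000113), Lig3 (-0.64 ± 0.13, adjusted p = 0.00279) and Xpc (-0.55, adjusted p = 0.0179). Rrm2b (0.27, adjusted p = 0.112), Ercc1 (0.13, adjusted p = 0.317) and Ddb2 (0.04, adjusted p = 0.836) did not pass, but passed as lower without between-array normalization (-0.68, -0.66 and -0.97), against a median of -0.80 over all genes. Fignl1 passed as lower (adjusted p = 0.0004), with no fold from its bound, but not under median centring (adjusted p = 0.0649). Under median centring 10 members were higher and 15 lower, with a members' median of -0.32. That scaling also moved all genes upward, with 4202 higher, 2899 lower and a median of 0.28. Of the calls over all genes, 59.2% were then higher, against 45% with quantile normalization. The members' median with quantile normalization was -0.56 without staggerer doxorubicin array 1 and -0.44 without array 2. The call of Xpc was lost without staggerer doxorubicin array 2 (adjusted p = 0.081) or without either wild type doxorubicin array (adjusted p = 0.0555 and 0.0801).

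In untreated cells the genotypes differed in fewer members. Of the 34, 1 (2.94%) was higher and 8 (23.5%) were lower in staggerer cells, against 6.69% higher and 6.26% lower of all genes tested, and 25 did not pass. Xpa was higher, by 0.72 ± 0.14 (adjusted p = 0.0136), or 0.30 without between-array normalization (adjusted p = 0.237). The lower ones were Fignl1 (-1.10 ± 0.18, adjusted p = 0.00674), Ung (-0.91 ± 0.15, adjusted p = 0.00717), Msh6 (-0.71 ± 0.15, adjusted p = 0.0183), Apex1 (-0.68 ± 0.14, adjusted p = 0.0171), Blm (-0.67 ± 0.12, adjusted p = 0.0122), Parp1 (-0.67 ± 0.14, adjusted p = 0.0201), Xrcc6 (-0.60 ± 0.14, adjusted p = 0.028) and Lig3 (-0.50 ± 0.13, adjusted p = 0.0451). Second probes did not pass for Apex1 (-0.32, adjusted p over all probes = 0.421), Msh6 (-0.32, 0.154), Parp1 (-0.41, 0.0835, and -0.51, 0.224) and, in one of 2, Xrcc6 (-0.60, 0.0571), while the second Ercc5 probe passed as higher (0.55, 0.0305). Of these 8, 4 belong to base excision and single-strand break repair. Among the S phase members 4 of 8 were lower, and among the cell division genes 8 of 14. These calls rest on all 4 untreated arrays: without staggerer array 1, 3 members were lower, and without staggerer array 2, wild type array 1 or wild type array 2, 1 was lower, with 0 higher in each of these runs. With both staggerer doxorubicin arrays left out of the normalization and the fit, 1 was higher and 8 lower.

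**Figure D4:**
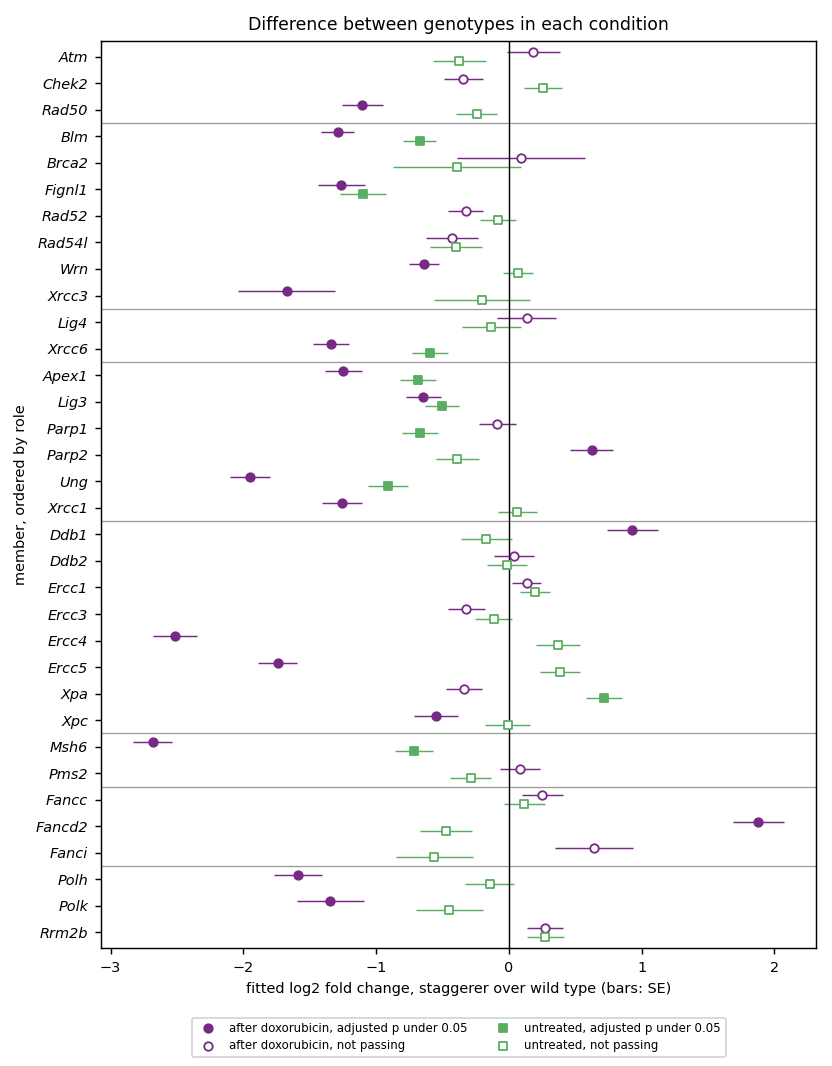
Fitted log2 fold change of each member in staggerer over wild type fibroblasts, after doxorubicin and untreated, with bars for the SE (n = 2 arrays per group), members in rows ordered by role, and filled points for an adjusted p under 0.05. Msh6, Ung, Ercc5 and, by a fitted value over levels not above background, Ercc4 lie far to the left after doxorubicin. Fancd2 and Ddb1 are filled points to the right, and so is Parp2, which turned to -0.37 without between-array normalization.

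Of 97 further repair and checkpoint genes, 60 were measured, of which 10 (16.7%) rose and 31 (51.7%) fell in staggerer cells, and 6 (10%) rose and 26 (43.3%) fell in wild type cells. Of all genes 31.9% rose and 33.2% fell in staggerer cells, and 26.4% rose and 30.5% fell in wild type cells. Their median log2 fold change was -0.56 in staggerer and -0.35 in wild type cells. The 13 further checkpoint genes measured had 0 that rose and 9 that fell in staggerer cells, and 2 that rose and 8 that fell in wild type cells, which is 69.2% fallen in staggerer and 61.5% in wild type cells.

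By fitted value, the genes that rose most among them in staggerer cells were Cetn2, a centrin that binds XPC (1.49 ± 0.21, adjusted p = 0.000648), the helicase gene Recql4 (at least 1.85-fold, adjusted p = 0.000339) and the end-joining factor Paxx (1.17 ± 0.19, adjusted p = 0.00118). By fitted value those that fell most there were the mismatch repair gene Mlh3, which was not above background after doxorubicin (at least 2.58-fold, adjusted p = 0.000221), Rad17, the clamp loader of the checkpoint (-2.20 ± 0.21, adjusted p = 0.0001), and the TFIIH gene Gtf2h3 (-2.12 ± 0.17, adjusted p = 4.37e-05). Top3a, a topoisomerase gene, was above background only on the wild type doxorubicin arrays (at least 2.48-fold higher there than in untreated wild type cells, adjusted p = 7.37e-05), so that its rise was in part fixed by the filter. Among the others, the genes that rose most in wild type cells were Rad9a (1.64 ± 0.17, adjusted p = 0.00015) and Rad1 (1.23 ± 0.15, adjusted p = 0.000351), which encode subunits of the checkpoint clamp. Clspn, which carries the ATR signal to CHK1, fell there (-1.93 ± 0.11, adjusted p = 1.27e-05), as did its fork partner Timeless (at least 3.08-fold, adjusted p = 6.05e-05) and Mlh3 (-1.79 ± 0.26, adjusted p = 0.000883).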

How the data were processed

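The authors deposited one linear intensity per array for each of 25697 probes and 1124 control rows, and a table of log2 values that equals, to within 5.09e-09, quantile normalization of the deposited log2 intensity with no background correction. The scanner software is not given in the sources used here, and with so few arrays every value is imprecise.

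The intensities were processed with limma 3.58.1 in R 4.3.3. Control rows carry no type: 10 that exceeded the median by over 5 median absolute deviations were dropped and 1114 served as negative controls for the normal-exponential correction (nec, offset 16), followed by log2 and quantile normalization of the probes. A probe was above background where under 0.01 of the controls reached its signal, and 2 of 8 arrays were required. This kept 12362 probes of 9340 genes, of which 715 are unnamed probes that stay in every count over genes. Genes were named by the platform annotation, updated through RefSeq's GRCm38.p6 table (23962 of 23978 named probes matched). All arrays entered one linear model of group means (lmFit, eBayes, 4 residual and 3.44 prior degrees of freedom). Two-sided p-values were Benjamini-Hochberg adjusted over all genes for each of 5 comparisons, with a threshold of 0.05. Values for other probes of a gene are adjusted over all 12362 probes and given where they differ by more than 1 or in the call of a change that the text names. Interaction values are fitted ones. The scripts were tested on simulated data.

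The members and lists were chosen with earlier results of these data known. Every measured member was accounted for, and those named with values on each array were the checkpoint kinases, the textbook p53-induced members and the 5 largest rises and falls of each comparison, with others of the same role beside them. Of the further pathway genes, the 3 largest rises and falls after doxorubicin in each genotype were named. The alternatives tried were no background correction (the authors' normalized table), median centring or no normalization between arrays, detection without a filter or required on all 8 arrays, averaging a gene's probes, a robust variance trend, only the 4 arrays compared, the replicate number as a block, and each array left out in turn, where the lone array of a group is taken to vary like the other groups. A sign change counts as a reversal only where a value was called.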

Additional observations from a re-analysis of the deposited data

Results flagged for a closer look

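For 19 of the 34 members the test of the difference itself, the interaction of genotype and doxorubicin, passed, so the fitted responses in staggerer and wild type cells differed. The values are the staggerer response minus the wild type response on the log2 scale, fitted by limma with adjusted p over all genes, and of all genes tested 26.6% passed with a positive and 32.5% with a negative difference. The staggerer response lay below the wild type one for Ercc4 (-2.89, adjusted p = 0.000171), Ercc5 (-2.13, 0.000244), Msh6 (-1.97, 0.000293), Xrcc3 (-1.47, 0.04), Polh (-1.44, 0.00246), Xrcc1 (-1.32, 0.00145), Xpa (-1.06, 0.00262), Ung (-1.04, 0.00428), Rad50 (-0.86, 0.011), Xrcc6 (-0.75, 0.0119), Wrn (-0.71, 0.00652), Blm (-0.62, 0.0181), Chek2 (-0.60, 0.038) and Apex1 (-0.56, 0.0364). It lay above the wild type one for Fancd2 (2.35, 0.000407), Fanci (1.20, 0.037), Ddb1 (1.10, 0.0101), Parp2 (1.01, 0.00737) and Parp1 (0.58, 0.0349). The staggerer responses of Fanci and Xrcc3 could not be measured, since at most 1 of the 4 staggerer arrays was above background for either, so their values show no difference between measured responses. Chek2 was above background on neither staggerer doxorubicin array. Its staggerer fall of at least 1.45-fold does not exceed its fitted wild type fall of 1.49-fold, so its value shows no larger measured fall in staggerer cells.

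The differences for Xrcc3, Blm, Chek2, Apex1, Fanci and Parp1 did not pass without some single arrays. For Xrcc3 this held for every array except staggerer doxorubicin array 2 and wild type doxorubicin array 2 (adjusted p from 0.0508 to 0.13), and its value without staggerer doxorubicin array 1 was -0.91. For Blm it held for untreated staggerer array 1, wild type doxorubicin array 2 and untreated wild type array 1 (0.0603 to 0.0633), and for Chek2 for all but wild type doxorubicin array 2 and untreated wild type array 2 (0.0535 to 0.124). For Apex1 it held for all but staggerer doxorubicin array 1 and untreated staggerer array 1 (0.0591 to 0.115). The same 2 arrays are the exceptions for Parp1 (0.0676 to 0.11). Fanci, which was 0.77 without staggerer doxorubicin array 1, kept its call without staggerer doxorubicin array 2, untreated staggerer array 1 and untreated wild type array 1 (0.0548 to 0.119 without the others). The difference did not pass under median centring for Xrcc3 (-0.98, adjusted p = 0.0817), Xrcc6 (-0.40, 0.109), Chek2 (-0.15, 0.577) and Apex1 (-0.37, 0.114), without background correction for Chek2 (-0.26, 0.128), and without between-array normalization for Parp2 (0.33, 0.339) and Parp1 (0.09, 0.784). The Chek2 difference also did not pass with the mean of probes (-0.23, 0.425) or a variance trend (0.128). Without a detection filter the differences for Chek2, Apex1, Fanci, Parp1 and Xrcc3 did not pass (0.0644 to 0.0819), and with the mean of probes that for Apex1 did not (-0.42, 0.133). Second probes did not pass for Chek2 (0.14, adjusted p over all probes = 0.751) and Apex1 (-0.27, 0.485), nor did the other probes of Xrcc6 (0.15, 0.587, and 0.60, 0.0846) and one of 2 for Parp1 (0.33, 0.415).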

How the results depend on the processing

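Results depended on the scaling. The median log2 fold change of all genes was 0.03, 0.46 under median centring and -0.56 without between-array normalization for doxorubicin in staggerer, -0.14, 0.28 and -0.80 for the genotypes after doxorubicin, and -0.11, 0.29 and -0.43 for the interaction. The share of calls over all genes that were higher was 49%, 66.7% and 16.7% in the first of these, 45%, 59.2% and 20.1% in the next and 45%, 60.6% and 28.6% for the interaction, while without between-array normalization it was 30.5% in place of 46.4% for doxorubicin in wild type and 11.7% in place of 51.7% for untreated genotypes. Without between-array normalization the members counted as higher and lower were 0 and 26 for doxorubicin in staggerer, 7 and 20 in wild type, 1 and 28 for the genotypes after doxorubicin, 0 and 16 untreated, and 3 higher for the interaction. Under median centring 10 members were higher and 15 lower in staggerer than in wild type cells after doxorubicin.

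With detection on all 8 arrays, which leaves 22 members, 4 rose and 10 fell in staggerer cells. In wild type cells 10 rose and 4 fell, and the members' median was 0.25 in place of -0.27. The interaction was positive for 3 members, and Fancd2 and Fanci, positive in the main setting, are not among the 22. Members that fell below background are left out by this filter, so these counts are in part fixed by it. The interaction had 3 positive members without a detection filter. In untreated cells 2 members were higher with the mean of probes, without background correction and with a variance trend; the cause was not tested. Leaving out 1 array gave 3 to 5 members higher and 13 to 17 lower for doxorubicin in staggerer, 8 to 11 and 8 to 10 in wild type, 2 to 5 and 15 to 18 for the genotypes after doxorubicin, 0 and 1 to 3 untreated, and 3 to 5 and 10 to 13 for the interaction. An alternative chosen after seeing the data left out both staggerer doxorubicin arrays and gave 11 higher and 12 lower members in wild type cells, and 1 and 8 in untreated cells.

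Reversed values were, without between-array normalization, Atm -0.70, Ddb2 -0.33, Fancd2 -0.23, Ung -0.81, Xpc -0.81 and Xrcc1 -0.85 for doxorubicin in staggerer, and Atm -0.84, Ddb2 -0.97, Ercc1 -0.66, Parp2 -0.37 and Rrm2b -0.68 for the genotypes after doxorubicin. Ercc3 gave 0.17 in staggerer under median centring, the Fignl1 interaction 0.39 without background correction, and the Xrcc6 interaction 0.000563 with the mean of probes. Deviations of samples with the same replicate number correlated at -0.033 to 0.026, so no shift over all genes went with the number. This cannot tell whether equal numbers mark the same culture or day. With the replicate block, 5 members were higher and 15 lower for doxorubicin in staggerer, 11 and 11 in wild type, 3 and 16 for the genotypes after doxorubicin, 1 and 7 untreated, and 5 and 12 for the interaction, where Chek2 (adjusted p = 0.0562) and Xrcc3 (0.0537) did not pass. Of 90 calls over the 5 comparisons, 68 kept direction and threshold under all 3 other scalings, 60 without any single array, and 51 under both.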
